A study of Canis lupus familiaris with 6 samples.

Results

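The enzymes examined here are those that consume tryptophan at the entry of the kynurenine pathway, those that act on kynurenine next, and the enzyme that loads tryptophan onto its transfer RNA. The members were IDO1, IDO2, TDO2, KMO, KYNU and WARS, taken as every non-control probe whose gene name on the canine array was one of these symbols. All 6 genes were found, with 7 probes among the 43603 non-control probes and 14671 symbols of the array. The set was put together with the values of these same arrays in view, in which IDO1 was far brighter in mix culture. Its mix against single culture values are therefore given as a description, with no p-value.

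The study profiled MDCK cells, an epithelial line from dog kidney, on single-colour Agilent canine arrays, 6 in all. The RNA on every array came from cells that expressed 2 introduced proteins. One was an mCherry-tagged β-catenin that lacks its N-terminus and is stable (β-cat ΔN, labelled mCherry-β-catenin Δ131), carried by a vector with the EF1 promoter, and the other was GFP-tagged RasV12, an active Ras, under tetracycline control. In single culture (3 arrays) these β-cat ΔN/RasV12 cells grew alone, and in mix culture (3 arrays) they grew among β-cat ΔN cells without RasV12, with 10 surrounding cells per RasV12 cell. Both cultures received tetracycline for 24 h before GFP-positive cells were sorted. Both groups thus carried stabilised β-catenin and active Ras, and the cultures differed by design in their neighbours. In mix culture the GFP-positive cells were also sorted out of a mixture with cells that lacked GFP-tagged RasV12. Whether such cells were carried over in sorting was not tested. All cells were of the MDCK line, whether the stable lines were clones is not given in the sources used here, and the labels do not say whether replicates were separate cultures, so the spread between arrays may be technical.

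IDO1, IDO2 and TDO2 each open the indole ring of tryptophan, the first and rate-limiting step of the kynurenine pathway. KMO and KYNU act on kynurenine further along, on the way to NAD, while WARS attaches tryptophan to its tRNA for protein synthesis. IDO1 is known for its induction by interferon-γ in epithelial and dendritic cells, where depletion of tryptophan and build-up of kynurenine restrain T cells. WARS is itself an interferon-γ-induced gene, and TDO2 is mainly a liver enzyme.

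The IDO1 and IDO2 probes are shown because IDO1 had the largest culture difference of the members and IDO2 is its neighbour. They are given 5′ to 3′ in lower case, and capitals mark the longest stretch that they share.
IDO1: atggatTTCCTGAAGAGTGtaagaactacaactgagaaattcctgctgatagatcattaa
IDO2: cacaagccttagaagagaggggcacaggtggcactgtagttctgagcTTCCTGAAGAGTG
The array design places the IDO1 probe at chr16:25392030-25392089 and the IDO2 probe at chr16:25319449-25319508, both on the minus strand of CanFam3.1 and 72522 bases apart. It assigns them to the transcripts ENSCAFT00000009261 and ENSCAFT00000009250. Read from its first base, the IDO1 probe holds 1 stop codon, which is its last codon. Where the probes lie among exons and UTRs was not analysed here. The IDO1 probe has 35% G and C and the IDO2 probe has 53.3%.

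The shared stretch of 13 bases ran from position 7 to 19 of the IDO1 probe and from 48 to 60 of the IDO2 probe, counted from the 5′ end. Of the 43603 non-control probes, these 2 were the only ones that held it on either strand. Among the other pairs of member probes, apart from the WARS pair, the longest shared stretch was 8 bases. Whether one transcript gave signal on the probe of the other was not tested.

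IDO1 passed the software's test for signal well above background on all 3 arrays of mix culture and on none of single culture. Its background-subtracted signal in single culture was 2.06, 1.01 and 1.42 intensity units in replicates 1, 2 and 3. In mix culture it was 31.5, 27.6 and 28.6 units. The mix culture arrays were therefore all bright and close to one another, and the groups did not overlap.

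The lowest signal that counted as well above background lay between 4.19 and 4.48 units on the 6 arrays. IDO1 in single culture was at 0.24 to 0.49 times that limit, and in mix culture at 6.15 to 7.44 times. The scanner software also gives an error for each spot, and the IDO1 signal was 1 to 2.14 times its error in single culture and 9.47 to 9.55 times its error in mix culture. The dim arrays thus bound the level of IDO1 from above rather than measure it. With each single culture array set at that limit, the level in mix culture was at least 6.58-fold higher. The limit is the lowest passing signal of any spot, and KYNU, described below, failed at somewhat higher signals. A stricter limit would give a smaller bound.

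The same bound was at least 6.65-fold on the slide that held replicate 1 of each group (slide 1) and at least 6.55-fold on the slide that held replicates 2 and 3 (slide 2). IDO1 was thus far brighter in mix culture on each slide taken alone. On the normalised log2 scale, where each array's 75th percentile is 0, the mean of IDO1 was -6.98 ± 0.37 (SD, n = 3 arrays) for single culture and -2.70 ± 0.20 (SD, n = 3 arrays) for mix culture. The difference of these means was 4.28 (SE 0.23), with 3.76 on slide 1 and 4.54 on slide 2. It uses single culture values below the detection limit, so its size is not a measured fold.

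**Figure D1:**
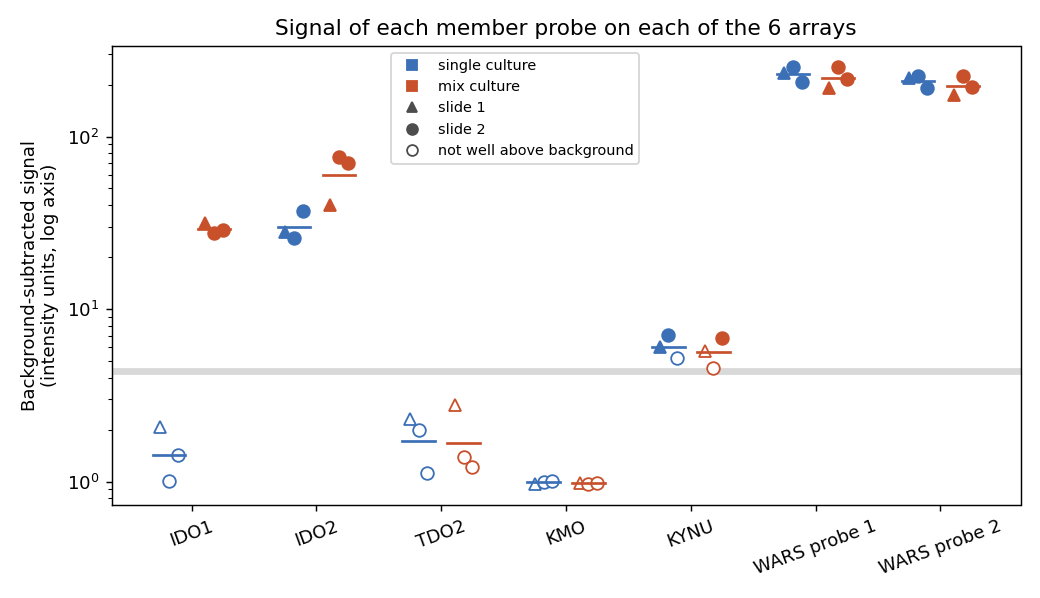
Background-subtracted signal in intensity units (log axis) of each member probe, with 1 point per array, triangles for slide 1, circles for slide 2, open points where the spot was not well above background, and a bar at the geometric mean of each group. The grey band covers the lowest signal well above background on the 6 arrays, 4.19 to 4.48 units; IDO1 crosses it between the cultures, TDO2 and KMO lie under it in both, and WARS lies far above it in both.

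IDO2 was well above background on all 6 arrays. Its signal was 27.8, 25.8 and 37.2 units in single culture and 40.1, 76.3 and 69.99 units in mix culture. Both slide 2 arrays of mix culture were brighter than the other 4 arrays, and the slide 1 array of mix culture was only slightly above the brightest single culture array. After normalisation that array fell among the single cultures, so the groups overlapped.

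The mean normalised IDO2 signal was -2.60 ± 0.35 (SD, n = 3 arrays) for single culture and -1.66 ± 0.76 (SD, n = 3 arrays) for mix culture. The difference of 0.94 (SE 0.39) corresponds to 1.91-fold and was 0.35 on slide 1 and 1.23 on slide 2. The spread of the mix culture arrays followed the slide, since the slide 2 arrays exceeded the slide 1 array by 1.31 on the log2 scale. In single culture the same gap between slides was 0.43. Slide and scan setting cannot be told apart, and their part in the IDO2 difference was not tested.

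TDO2 and KMO, an entry enzyme and a later one, did not rise well above background in either culture. TDO2 gave 2.29, 1.995 and 1.11 units in single culture and 2.79, 1.39 and 1.21 units in mix culture. KMO gave 0.968 to 1.00 units over all 6 arrays, about the error that the software gave for the spot. No fold is given for either gene, because both groups were below the limit.

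KYNU, which cleaves kynurenine and 3-hydroxykynurenine, lay at the limit of detection. Its signal was 6.02, 7.05 and 5.22 units in single culture and 5.74, 4.56 and 6.76 units in mix culture. It was well above background on 2 single culture arrays and 1 mix culture array, and the groups overlapped. Its probe was not tested, because neither group was above background throughout. The design places its 60 bases across a span of 854 bases on chr19:45109688-45110541 (CanFam3.1, plus strand).

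WARS was measured by 2 probes on the minus strand of chromosome 8, from 68611101 to 68611160 and from 68611102 to 68611161 (CanFam3.1). They are offset by 1 base and share 59 bases, so they are not independent measurements. Both were well above background on all 6 arrays. The first probe gave 235, 254 and 207 units in single culture and 190, 251 and 216 units in mix culture. The second gave 218, 224 and 191 units in single culture and 174, 225 and 193 units in mix culture. On both probes the slide 1 array of mix culture was the dimmest, and the groups overlapped.

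The difference of normalised means was -0.15 (SE 0.25) for the first WARS probe and -0.17 (SE 0.24) for the second. On slide 1 the mix culture was lower by that measure, at -0.48 and -0.50, and on slide 2 the differences were 0.02 and 0.00. Neither difference exceeded its SE in this fit without a slide term, and these errors leave room for a small change in either direction. With a slide term the SEs were 0.146 and 0.141, slightly smaller than the differences. A lower number of expressing cells and less RNA per cell cannot be told apart in these pooled RNA samples, here or for any gene below.

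**Figure D2:**
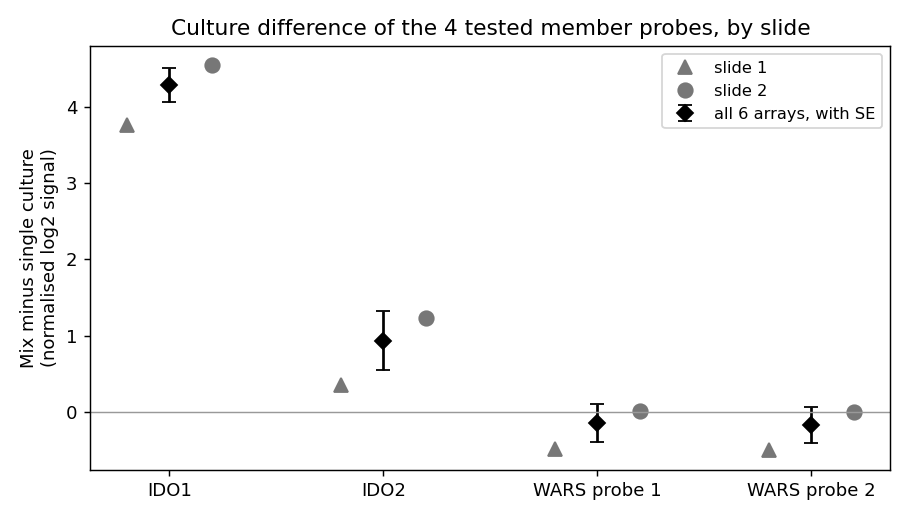
Difference of mix minus single culture in normalised log2 signal for the 4 member probes that were tested, with diamonds for all 6 arrays (bars, SE from limma), triangles for slide 1 (1 array per culture) and circles for slide 2 (2 arrays per culture). IDO1 is at 3.76 and 4.54 on the 2 slides, IDO2 at 0.35 and 1.23, and both WARS probes near 0 on slide 2 and below it on slide 1; the single culture values of IDO1 were under the detection limit.

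A probe entered the limma test if all arrays of either group had it well above background. limma fits a linear model to each probe and adjusts p-values over all 26623 that entered. Of these, 235 (0.883%) passed an adjusted p of 0.05, with 217 (0.815%) higher and 18 (0.0676%) lower in mix culture. Of the 7 member probes 4 were tested, IDO1 through mix culture alone, and the IDO1 probe alone was called. The groups did not overlap for 16.5% of tested probes, IDO1 among them and the other 3 member probes not. Since the set was chosen on this comparison, nothing is read from these counts. The median difference of the 4 tested member probes was 0.39 and that of all tested probes was -0.05.

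The same caution holds for models with a further term, whose calls are given as a description and from which nothing is read. The IDO2 probe passed beside IDO1 with the slide as a block, where 7.2% of all probes passed, and with the replicate block, where 5.25% did. It did not pass when mix replicates 2 and 3 were exchanged in that block, where 5.43% of all probes passed. That exchange was added after seeing the data, because the numbers of these 2 arrays are in doubt. The WARS probes passed with none of these blocks. For an effect of culture that differed between the slides, limma called 10 probes (0.0376%), none of them a member. At an unadjusted limma p under 0.05, 2434 of all 26623 tested probes passed, and 2 of the 4 tested member probes did. The gap between slides in the IDO1 difference rests on single culture signals below the detection limit, and the bounds given above were 6.65-fold and 6.55-fold.

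The similarity of other genes to IDO1 was measured over the 6 arrays, as the distance between normalised log2 profiles after each probe was centred on its mean. The 5 nearest symbols were HLA-DRB1 (distance 0.53), the uncharacterised LOC100684769 (0.79), GPNMB (0.81), IFGGB1 (0.88) and PPARGC1A (0.90), with Pearson correlations of 0.986 to 0.996. HLA-DRB1 is an MHC class II chain that presents antigen, IFGGB1 is named as an interferon-inducible GTPase, and PPARGC1A is a coactivator of mitochondrial genes. Each of the 5 was higher in all 3 mix culture arrays than in any single culture array. Like the high correlations, this follows from their choice by nearness to IDO1. HLA-DRB1 went from 41.8, 21.8 and 28.2 units in single culture to 570, 633 and 834 units in mix culture.

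GPNMB, PPARGC1A and LOC100684769, like IDO1, were below that limit in all single cultures. The mix culture level of GPNMB was at least 4.75-fold higher, that of LOC100684769 at least 5.25-fold and that of PPARGC1A at least 3.603-fold. IDO2 stood at a distance of 4.26 from IDO1, with a correlation of 0.717, and ranked 369 among 17603 named probes by nearness. The first WARS probe had a correlation of -0.27 with IDO1. The single culture values of IDO1 lay below the detection limit, so the distances, ranks and correlations rest in part on unmeasured levels. They describe 6 arrays that share 2 slides and 2 groups, and they carry no test.

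**Figure D3:**
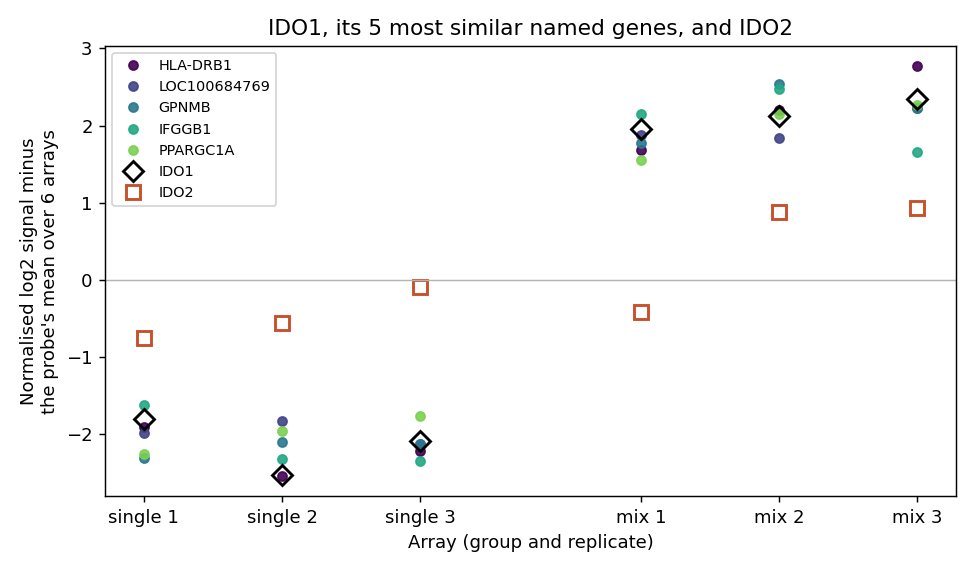
Normalised log2 signal of IDO1 (diamonds), its 5 nearest named genes (filled circles) and IDO2 (squares) on each array, after subtraction of each probe's mean over the 6 arrays; arrays are grouped by culture and replicate. IDO1 and its 5 neighbours, which were chosen for nearness to it on these values, lie below 0 in all single cultures and above 0 in all mix cultures. IDO2 lies below 0 on mix replicate 1.

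On the array, 3 other probes lay within 200000 bases of the IDO2 to IDO1 stretch of chromosome 16, a window chosen after the values had been seen. C16H8orf4, on the far side of IDO2 at 25213023 to 25213082 (CanFam3.1, minus strand), gave 1.095, 1.11 and 1.13 units in single culture and 13.1, 7.26 and 3.07 units in mix culture. It was well above background on 2 mix culture arrays and on no single culture array, so it was not tested. The other two probes, CX993220 between IDO2 and IDO1 and LOC475575 beyond IDO1, were not well above background on any array.

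Genes around the members were taken from 8 lists, with 1 probe per gene, the brightest. Of the 85 listed genes reported here, 74 were matched on the array and 60 were tested, and limma called none of them. At an unadjusted p under 0.05, 12 (20%) passed by limma, where 8.71% of all tested probes did, and 11 (18.3%) by the test that the study's methods name, where 9.73% did. With the slide as a block 11 of the 60 (18.3%) passed, 2 higher and 9 lower in mix culture, where 7.2% of all probes passed. With the replicate block 8 of them (13.3%) passed, all among those 11, where 5.25% of all probes passed. With mix replicates 2 and 3 exchanged in that block, 6 passed, all among those 8. No test of the lists as such was run. The SEs given for these genes come from the fit without a block, so they are not the errors behind the p-values given with a block. The median difference over the 60 genes was -0.20 and that over all tested probes was -0.05. The values over all probes also cover dimmer probes and several probes of a gene, so these comparisons are not like for like.

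The other enzymes of the kynurenine pathway did not share the pattern of IDO1. Of 10 listed, 8 were on the array and 5 were tested, with a median difference of -0.39. KYAT1, an aminotransferase that turns kynurenine into kynurenic acid, had the largest difference, -0.44 (SE 0.16), and was at 4994, 3706 and 3412 units in single culture and 4058, 2787 and 2554 units in mix culture. It passed with the slide block (limma adjusted p = 0.0426) and not with the replicate block (0.0802). AADAT, a further kynurenine aminotransferase, differed by -0.44 (SE 0.31), with 0.45 on slide 1 and -0.88 on slide 2. The enzymes of the branch towards NAD, HAAO and QPRT, stayed below the limit throughout.

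Of the further enzymes listed for NAD synthesis, 5 were tested and none passed, with either block or without. NAMPT, the salvage enzyme that uses nicotinamide, differed by 0.43 (SE 0.24) and NMNAT1 by -0.22 (SE 0.18). Of the other routes of tryptophan use, 3 of 6 genes on the array were tested and none passed with either block or without. IL4I1, an oxidase that acts on tryptophan and other aromatic amino acids, was at 17.96, 33.3 and 26.1 units in single culture and 52.2, 45.2 and 36.8 units in mix culture. Its groups did not overlap, as for 16.5% of all tested probes and 28.3% of the 60 tested genes of the lists. The IL4I1 difference was 0.76 (SE 0.30), with 1.36 on slide 1 and 0.46 on slide 2. DDC, which decarboxylates hydroxytryptophan to serotonin, differed by -0.27 (SE 0.46).

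Tryptophan enters cells through exchangers and cotransporters, of which 5 of 8 were tested, with a median difference of -0.36. The largest differences were those of SLC1A5, a glutamine carrier that supplies the exchanger, at -0.48 (SE 0.33), and of SLC7A5, the exchanger itself, at -0.46 (SE 0.30). SLC1A5 passed with the slide block (limma adjusted p = 0.0436) and not with the replicate block (0.0819). SLC7A5 passed with neither.

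WARS can be set beside the 20 other aminoacyl-tRNA synthetases, all of which were tested and well above background on every array. Their median difference was -0.22, and 17 of the 20 were lower in mix culture than in single culture by the mean. YARS had the largest difference, -0.67 (SE 0.22), followed by CARS at -0.65 (SE 0.17). CARS passed with the slide block (limma adjusted p = 0.0306) and not with the replicate block (0.0548). MARS, which is named here after its value was seen, was at -0.63 (SE 0.31) and passed with both (0.0204 and 0.0357). The WARS differences of -0.15 and -0.17 lay within the range of the list, from -0.67 to 0.19.

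Kynurenine can activate the aryl hydrocarbon receptor, a transcription factor whose classical targets include CYP1A1 and CYP1B1. CYP1A1 was not well above background on any array, and CYP1B1 differed by 0.45 (SE 0.30). Of the 7 tested genes of this list the median difference was -0.04. TIPARP, which encodes an ADP-ribosyltransferase induced by the receptor, was at 594, 498 and 452 units in single culture and 1115, 716 and 685 units in mix culture. It differed by 0.61 (SE 0.15) and passed with the slide block (limma adjusted p = 0.0169), while NQO1, a quinone reductase, passed in the other direction at -0.59 (SE 0.20, adjusted p = 0.0137). Neither passed without a block.

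Low tryptophan can engage the kinase GCN2, which acts through ATF4 on genes of amino acid supply. All 9 genes of this list on the array were tested, with a median difference of -0.31. EIF2AK4, which encodes GCN2, differed by 0.23 (SE 0.16) and ATF4 by -0.31 (SE 0.15), and neither passed. ATF3, a stress-induced transcription factor, was at 210, 271 and 219 units in single culture and 557, 478 and 396 units in mix culture, a difference of 0.96 (SE 0.20). TRIB3, an ATF4 target, was at 167, 221 and 183 units in single culture and 83.1, 126 and 113 units in mix culture, a difference of -0.90 (SE 0.32). Both passed with the slide block (limma adjusted p = 0.00663 and 0.00812), in opposite directions.

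The amino acid synthesis genes ASNS and PSAT1 and the stress gene DDIT4, named after their values were seen, also passed with the slide block, all lower in mix culture. Their differences were -0.71 (SE 0.21), -0.73 (SE 0.40) and -0.88 (SE 0.33). The genes of this list that passed with that block were thus 1 higher and 4 lower.

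Interferon-γ acts on IDO1 through JAK kinases and transcription factors, among them IRF1. IFNG itself was not well above background on any array, with 1.03 to 1.08 units. IRF1 was at 39.5, 44.4 and 40.2 units in single culture and 46.5, 51.1 and 49.2 units in mix culture, a difference of 0.18 (SE 0.22). The kinase JAK2 differed by 0.27 (SE 0.29). BIN1, whose loss is known to raise IDO1 expression in mouse cells, differed by -0.34 (SE 0.14). IRF1, JAK2 and BIN1 did not pass with either block or without. The list is not given in full here, so these genes do not stand for the interferon-γ route as a whole.

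**Figure D4:**
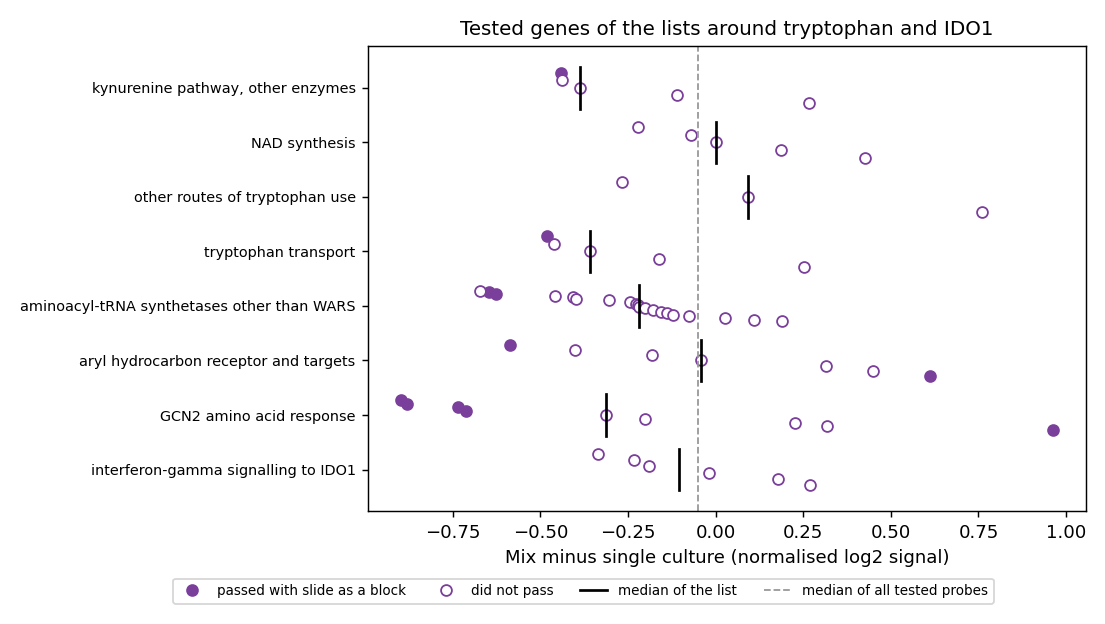
Difference of mix minus single culture in normalised log2 signal for the 60 tested genes of the 8 lists, 1 point per gene, filled where the gene passed limma at an adjusted p of 0.05 with the slide as a block. Black lines mark the median of each list and the dashed line the median of all tested probes (-0.05); filled points lie on both sides in the aryl hydrocarbon receptor and GCN2 lists, and ATF3 is the highest point at 0.96.

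The arrays carried 43803 non-control spots each, of which 61.1% to 65.7% were well above background. The kidney epithelial markers CDH1, EPCAM, KRT18, CDH16, PAX8, TJP1 and OCLN were well above background on all 6 arrays. Of 8 leukocyte markers, which matter because immune cells also express IDO1, 4 were not well above background on any array, among them PTPRC, ITGAX and CD83. CD3E and CD14 were above it on all 6 arrays and CSF1R on 3 single culture and 2 mix culture arrays. ITGAM was above it on 1 mix culture array alone, at 7.33 units. The summed signal of the 8 was 57.6 to 88.0 units in single culture and 60.8 to 86.2 units in mix culture, and the ranges overlapped. CD14 alone gave 36.7 to 55.4 units over the 6 arrays, so the sum mostly follows CD14 and says little about the other markers.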

How the data were processed

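Total RNA of sorted β-cat ΔN/RasV12 cells, 3 single and 3 mix cultures, was labelled with Cy3 and hybridised to canine arrays of 60-base probes. For each array the authors deposited a scanner file. Per the file headers, its intensity values are background-subtracted within the array by Agilent Feature Extraction (11.5.1.1 on slide 1, 12.1.1.1 on slide 2) and not scaled between arrays. The spot flags (well above background, outlier, saturated) are also as deposited. A second deposited table holds log2 values whose steps are not stated. They are centred within each slide, and served as an alternative. In that table, the columns of mix replicates 2 and 3 matched the scanner file of the other, so either could carry the wrong number. After both sources were centred on each probe's mean within a slide, the correlations were 0.993 and 0.999, against 0.458 and 0.459 with their own. The scanner files' numbers were used. Group means do not depend on this, but the replicate block and the correlations of same-numbered arrays do, so an exchange of the numbers was added as an alternative after seeing the data.

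From the scanner files log2 of the signal was taken, flagged spots were dropped (5 to 9 per array), replicate spots were averaged, and arrays were scaled by subtracting their own 75th percentile. Probes well above background on all arrays of at least 1 group went into a two-sided limma test (version 3.58.1, R 4.3.3), and p-values were adjusted by Benjamini-Hochberg over all 26623. The fit was tested on simulated data. With 6 arrays, their number limits the precision. The bound for a probe dim in 1 group set the bright group's mean against, per dim array, the probe's own signal or, if higher, the lowest signal that counted as well above background there.

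The members and lists were chosen with earlier results of these data known. Some listed genes are not reported here and are left out of the lists' counts, medians and sums. Text names all members and, per list, genes called and the 2 with the largest absolute difference, and the 5 symbols nearest IDO1. Some other listed genes are named outside this rule, among them HAAO, QPRT, CYP1A1, CYP1B1, EIF2AK4, ATF4, IFNG and IRF1. Symbols came from the array design or its descriptions for 23930 probes; 21897 matched a RefSeq table of the assembly UU_Cfam_GSD_1.0, used for names alone. Same-numbered arrays deviated together from their group means (correlations 0.801, 0.53 and 0.572), but slide 2 arrays of different numbers did so slightly more than those of the same number (0.61 and 0.632). These correlations cannot tell pairing by number from a shared slide, and the replicate block was run as an alternative. Alternatives were a slide or replicate block, other filters, background corrections and scalings, the authors' table, the t-test of the methods, slide 2 alone and leaving out each array.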

Additional observations from a re-analysis of the deposited data

How the results depend on the processing

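The IDO1 difference of 4.28 stayed between 4.28 and 4.54 under the other scalings and sources and on slide 2 alone. It was between 4.09 and 4.45 when 1 array was left out. The slide and replicate blocks hold both cultures equally, so they could not change this difference of means (4.28). The IDO1 difference was 0.54 under normexp, whose offset of 50 exceeds the IDO1 signals. The filter on all 6 arrays drops IDO1, and with 1 IDO1 probe no other probe could be tried. Normexp used spot medians, since not every file held means. The IDO2 difference of 0.94 ranged from 0.41 to 1.37 and stayed positive in all 16 alternatives, though the blocks and filters could not change it. Both WARS differences stayed within 0.30 of 0 and were slightly positive on slide 2 alone and without mix replicate 1.

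The count of probes called, 235, was 1917 with the slide block, 1399 with the replicate block (1446 with mix replicates 2 and 3 exchanged, added after seeing the data), 143 with the filter on all 6 arrays, 4077 in the authors' table, 101 under normexp, 999 on slide 2 alone and 8 by the t-test of the methods (2590 at an unadjusted p under 0.05). It was 92 to 247 when 1 array was left out, lowest without single culture replicate 3 or mix culture replicate 2 (92 each) and 99 without mix culture replicate 3. Pathway genes called were 0 without a block, 11 with the slide block, 8 with the replicate block (6 with the exchange), 21 in the authors' table and 3 on slide 2 alone. They were 0 whichever array was left out, with 6 to 11 at an unadjusted p under 0.05 by limma. The 10 probes called for a culture effect that differed between slides fell to 0 when any slide 2 array was left out, with 1938 to 2607 at an unadjusted p under 0.05. Slide 1 held 1 array per culture, so the spread in that test came from slide 2 alone. Leaving out a slide 2 array left fewer arrays to estimate that spread. The causes of the changes in these counts were not tested. No signal under about 4 units counted as well above background, and KYNU failed on some arrays at 4.56 to 5.74 units. This leaves IDO1 in single culture, TDO2 and KMO as limits.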
